A study of Mus musculus with 12 samples.

Results

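The 2 interleukin-1 knockouts were compared directly with each other, gene by gene, in the contused mouse spinal cord. The comparison rests on 8 of the 12 arrays of the series, 4 from mice without Il1a (Il1a KO) and 4 from mice without Il1b (Il1b KO), and covers 19938 genes, each read by its brightest probe set that carries a single gene symbol. All mice were on the C57BL/6 background and 8 to 12 weeks old, and all received a contusion of 50 kdyn. Total RNA came from a 6 mm piece of cord around the lesion, dissected 24 hours after the injury, and was read on whole-transcript arrays. The 4 remaining arrays, from wild-type C57BL/6 mice with the same injury, enter the model through the spread between arrays and are given beside the knockouts as a reference level. No uninjured cord was analysed here. How the alleles were made, how far each line had been backcrossed, and the sex of the mice are not given in the sources used here. The labels call the arrays biological replicates without naming animals, so each p measures the spread between these arrays, and 4 arrays per group limit the precision.

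Interleukin-1 alpha and interleukin-1 beta are related cytokines that bind the same receptor, Il1r1. The receptor with its partner Il1rap recruits Myd88 and Irak kinases and activates NF-kB, which drives chemokines, cytokines, prostaglandin synthesis and adhesion molecules. Interleukin-1 alpha is active in its full-length form and is released by damaged cells as an alarm signal, whereas interleukin-1 beta is made as an inactive precursor that inflammasome-activated caspase-1 cleaves. In the injured cord both are made largely by microglia and by invading myeloid cells. Because the 2 ligands share a receptor, a direct comparison asks which transcripts tell the loss of the one from the loss of the other.

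The arrays were alike in overall signal, with medians over genes between 8.156 and 8.199 (log2 value) and correlations over genes between any 2 arrays from 0.9932 to 0.9985. Markers of the labelled tissue were bright on all 12 arrays: the neuronal gene Snap25 lay between 13.358 and 13.513, the myelin gene Mbp between 12.749 and 12.896 and the astrocyte gene Gfap between 12.523 and 12.726. One Il1a KO array, replicate 1, had a different sex-linked profile from the other 11, with Xist at 6.468 against 11.891 to 12.190. Of the Y-linked genes, Eif2s3y was at 9.155 against 3.652 to 3.937 and Uty at 8.421 against 4.304 to 4.589. The Il1a KO group was thus mixed in this profile, whereas the Il1b KO and wild-type groups were not. Without Il1a KO replicate 1, 39 of the 130 genes called below lost their call and 91 kept it. Leaving out Il1a KO replicate 2, 3 or 4 instead, 90, 88 and 88 kept it. These totals are alike, but they do not show which genes depend on replicate 1. Values without replicate 1 are given below for some genes and list medians only. The cord was measured in bulk, so fewer cells of a type and less RNA per cell cannot be told apart.

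The targeted genes were examined first. Il1b read 6.19, 6.63, 6.47 and 6.39 on the Il1b KO arrays, 8.18, 8.05, 8.13 and 7.96 on the Il1a KO arrays and 7.68 to 8.06 on wild-type arrays. All Il1b KO arrays lay below all others, and the Il1a KO was 3.17-fold above the Il1b KO (log2 difference 1.66, SE 0.0939, limma adjusted p = 5.98e-07). Il1a read 4.97, 4.87, 5.03 and 5.03 in the Il1a KO, and 4.85, 5.31, 5.01 and 5.24 in the Il1b KO, against 5.74 to 6.22 in wild type. Its values in the 2 knockouts overlapped (log2 difference -0.13, 95% interval -0.37 to 0.12, adjusted p = 0.849). The Il1a reading thus separated wild type from each knockout but not the knockouts from each other. Which exons each allele lacks and where the probes lie is not stated in the labels, and signal left in a knockout is no measure of intact transcript.

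Outside Il1b itself no measured gene of the receptor system passed the test, which 0.652% of all genes tested did. At that share, so small a set is likely to hold no other call. Besides Il1b, 0 of the other 8 measured interleukin-1 family ligands and 0 of 18 receptors and adaptors passed the limma threshold, and among these 18 an unadjusted p below 0.05 was found for 0. The receptor antagonist Il1rn averaged 8.47 in the Il1a KO and 8.75 in the Il1b KO (log2 difference -0.29, 95% interval -0.54 to -0.03, adjusted p = 0.574). The decoy receptor Il1r2 averaged 7.62 and 7.69, both below the wild-type mean of 8.30 (log2 difference between the knockouts -0.07, adjusted p = 0.962). Il1rap was at -0.13 and Myd88 at -0.12 as log2 differences, neither of which passed. Il1r1 has no probe set with a single symbol and was not analysed here.

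Across all genes 130 of 19938, or 0.652%, were called, meaning a Benjamini-Hochberg adjusted p below 0.05 by limma. Of these, 69 (0.346% of the genes tested) were higher in the Il1a KO and 61 (0.306%) were lower. A called change reached 1.5-fold for 29 genes (0.145%), 18 higher and 11 lower, and 2-fold for 11 genes. The median size of a called difference was 0.393 on the log2 scale, against 0.0457 over all genes, and the smallest called was 0.178. The 4 arrays of the one knockout did not overlap the 4 of the other for any of the 130 called genes, a separation also shown by 1444 (7.24%) of the genes tested. Without Il1a KO replicates 1, 2, 3 or 4, the genes lower in the Il1a KO numbered 39, 38, 39 and 37, and the higher ones 55, 55, 49 and 51. Without Il1b KO replicates 1, 2, 3 or 4, the lower ones numbered 64, 51, 37 and 40, and the higher ones 55, 62, 58 and 52.

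**Figure D1:**
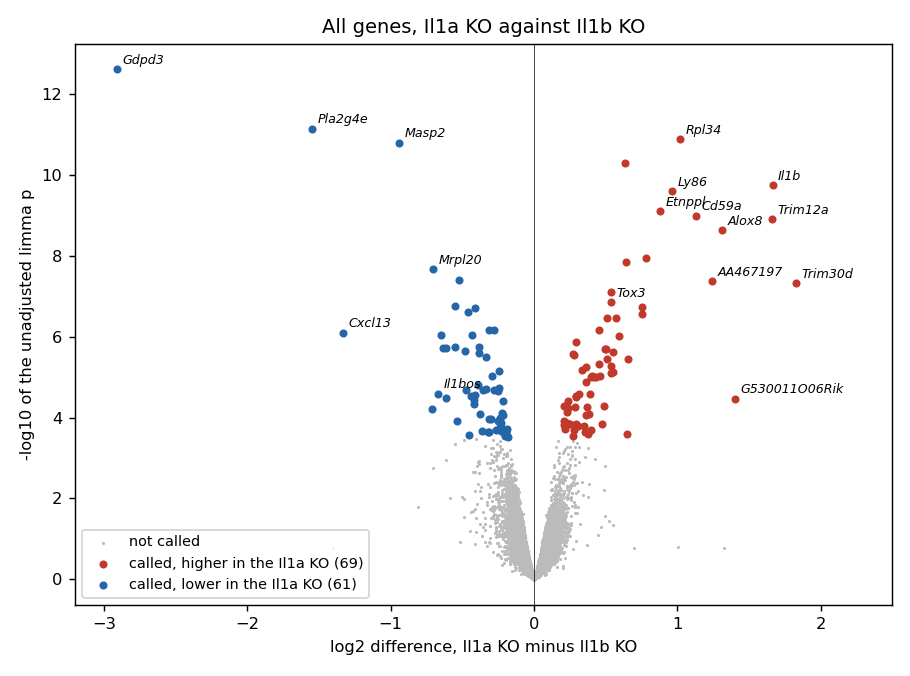
Each point is 1 of the 19938 genes, placed by its log2 difference (Il1a KO minus Il1b KO, horizontal axis) and by the negative log10 of its unadjusted limma p (vertical axis). The 69 called genes that were higher in the Il1a KO are on the right and the 61 lower ones on the left, and Gdpd3, at -2.91, stands farthest from 0.

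Wild-type arrays lay with the Il1a KO for most called genes. Their range overlapped the Il1a KO arrays alone for 100 of the 130 genes, the Il1b KO arrays alone for 18, both for 3 and neither for 9. The wild-type mean was nearer the Il1a KO mean for 110 genes and nearer the Il1b KO mean for 20. These counts describe the called genes and were not tested.

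The largest difference of all was that of an enzyme of phospholipid metabolism. Gdpd3, a glycerophosphodiesterase with lysophospholipase D activity that yields lysophosphatidic acid, read 6.57, 6.63, 6.61 and 6.57 in the Il1a KO and 9.66, 9.52, 9.66 and 9.19 in the Il1b KO, with wild type at 6.30 to 6.68. The lowest Il1b KO array was far above every other array. Gdpd3 was 7.51-fold lower in the Il1a KO (6.59 ± 0.0292 against 9.50 ± 0.221, SD, n = 4 each, log2 difference -2.91, SE 0.0976, limma adjusted p = 4.91e-09). The calcium-dependent N-acyltransferase and phospholipase Pla2g4e read 7.19, 7.25, 7.26 and 7.31 in the Il1a KO and 8.75, 8.71, 8.80 and 8.93 in the Il1b KO. It was 2.92-fold lower in the Il1a KO, whose arrays lay around the wild-type mean of 7.26 (log2 difference -1.55, SE 0.0676, adjusted p = 7.21e-08). The lipoxygenase gene Alox8 went the other way, with 8.51, 8.32, 8.43 and 8.24 in the Il1a KO against 7.07, 7.36, 6.94 and 6.88 in the Il1b KO. Alox8 was 2.48-fold higher in the Il1a KO and again level with wild type, at 8.31 (log2 difference 1.31, SE 0.0908, adjusted p = 4.14e-06). These 3 were the called genes among 27 measured phospholipase and lipid mediator genes, a list chosen with their values known, where 0.652% of all genes tested were called. The median log2 difference of that list was -0.035 (-0.022 without Il1b KO replicate 3), against -0.0042 over all genes. Members of the classical prostaglandin and leukotriene route had small differences that did not pass: Ptgs2 was at -0.25, Ptges at -0.15, Alox5ap at -0.20 and Pla2g4a at -0.12.

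Outside that list, Etnppl, an astrocyte enzyme that breaks down phosphoethanolamine, ran from 8.28 to 8.41 in the Il1a KO and from 7.40 to 7.56 in the Il1b KO (1.84-fold higher in the Il1a KO, adjusted p = 1.99e-06). Elovl7, an elongase of long-chain fatty acids, ran from 10.36 to 10.57 in the Il1a KO and from 10.89 to 11.14 in the Il1b KO, with a log2 difference of -0.55.

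The start-site region of Gdpd3 is shown because this gene had the largest difference between the knockouts. It is the 250 bases upstream of the RefSeq start on the plus strand of mouse build GRCm38.p6, chr7:126766164-126766413, 5′ to 3′. It was searched on both strands for an NF-kB motif (GGG, any 3 bases, then TTCC) and for an interferon-stimulated response element (GAAA, any 2 bases, then GAAA), and neither string is in this window.
Gdpd3: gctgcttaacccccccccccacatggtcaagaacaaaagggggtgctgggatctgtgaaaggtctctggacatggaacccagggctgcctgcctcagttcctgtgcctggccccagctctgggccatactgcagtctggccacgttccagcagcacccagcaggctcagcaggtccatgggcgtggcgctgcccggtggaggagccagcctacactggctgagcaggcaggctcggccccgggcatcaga

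**Figure D2:**
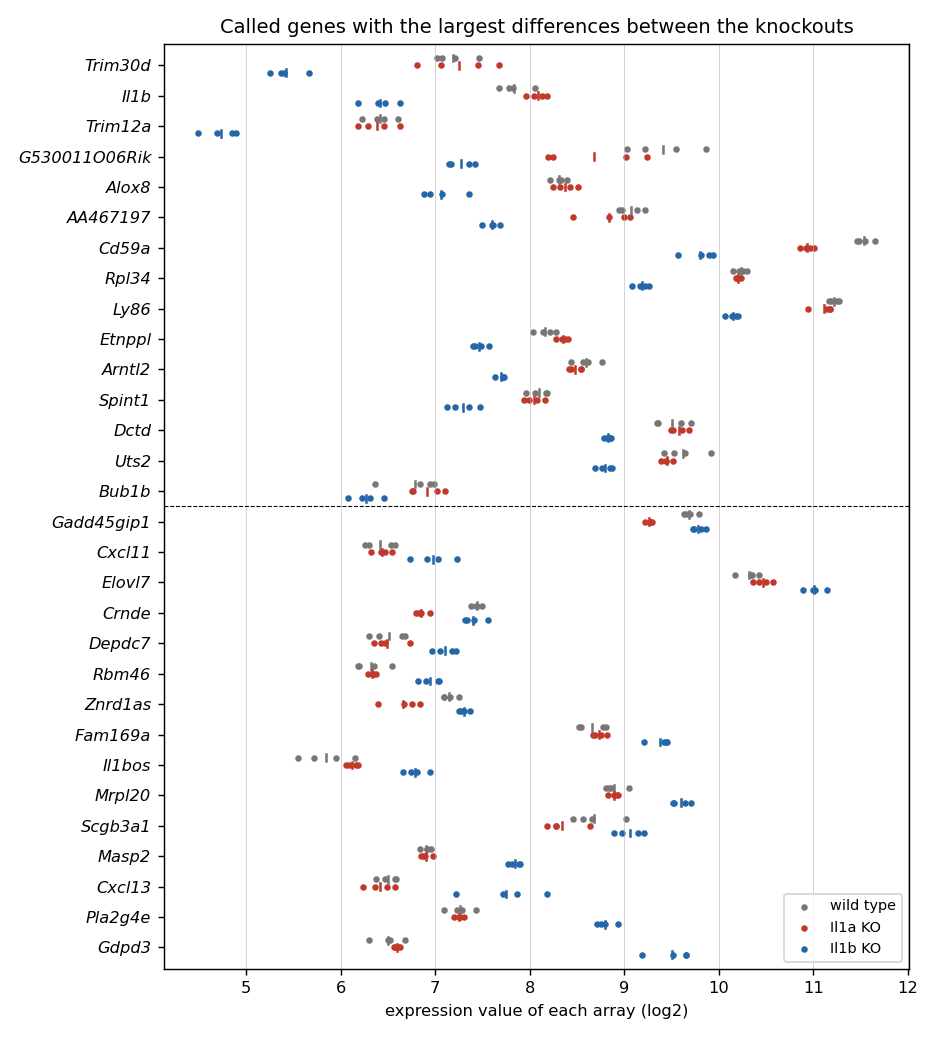
Expression values of single arrays (log2, horizontal axis) for the called genes that differ most between the knockouts, 15 higher and 15 lower in the Il1a KO, 1 row per gene, with the 4 arrays of each group as points. The points of the 2 knockouts separate in every row, and wild type lies with the Il1a KO in most rows but with the Il1b KO in those of Znrd1as, Crnde and Gadd45gip1.

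Of 32 measured chemokines 2 were called, against 0.652% of all genes tested, and both were lower in the Il1a KO. Cxcl13, which draws B cells through Cxcr5, read 6.36, 6.23, 6.58 and 6.49 in the Il1a KO and 7.71, 7.22, 7.87 and 8.18 in the Il1b KO, with a wild-type mean of 6.50. It was 2.51-fold lower in the Il1a KO (log2 difference -1.33, SE 0.151, adjusted p = 0.000534), and its spread in the Il1b KO (SD 0.398) was wide. Cxcl11, an interferon-inducible ligand of Cxcr3, read 6.47, 6.32, 6.54 and 6.43 in the Il1a KO against 6.91, 7.03, 6.74 and 7.23 in the Il1b KO. Its log2 difference was -0.54 (adjusted p = 0.0246), and the call was lost without Il1a KO replicates 1, 2 or 4 or Il1b KO replicates 2 or 4 (adjusted p 0.0693, 0.103, 0.0871, 0.0773 and 0.0661). The list's median log2 difference was -0.017, and it was 0.003 without Il1a KO replicate 1 and -0.059 without Il1a KO replicate 3. The neutrophil chemoattractant Cxcl2 was at -0.81, Cxcl3 at -0.33 and the monocyte chemoattractant Ccl2 at -0.22, whereas Cxcl1 was at 0.01, Ccl12 at 0.39, Ccl17 at 0.49 and Cxcl10 at 0.50, and none of these passed.

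Other products of interleukin-1 signalling gave no call. In lists this short the share called over all genes tested, 0.652%, would itself give few calls or none. Of 24 NF-kB subunits, inhibitors and feedback targets, 12 acute-phase genes and 20 cytokines, 0 passed in each list, with 2, 1 and 3 members at an unadjusted p below 0.05 as against 7.79% of all genes. Their median log2 differences were -0.028, -0.062 and -0.021, and a single array brought each close to 0: -0.001 without Il1b KO replicate 3, 0.001 without Il1a KO replicate 1 and 0.001 without Il1b KO replicate 2. Nfkbia, the inhibitor that NF-kB itself induces, was at -0.28, Il6 at -0.34, Osm at -0.29, Tnf at -0.02 and the acute-phase gene Saa3 at -0.24. Among 24 inflammasome and cell death genes 0 were called as well, with Casp1 at -0.07, Nlrp3 at -0.16 and Pycard at 0.13.

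Complement genes included 1 call in each direction among 23 measured, against 0.652% of all genes tested. Masp2, a serine protease of the lectin pathway, read 6.85, 6.98, 6.87 and 6.90 in the Il1a KO and 7.81, 7.89, 7.89 and 7.77 in the Il1b KO. It was 1.92-fold lower in the Il1a KO (log2 difference -0.94, SE 0.0439, adjusted p = 8e-08), which again lay at the wild-type mean of 6.91. Cd59a, which blocks the membrane attack complex, read 10.86, 10.96, 11 and 10.92 in the Il1a KO against 9.81, 9.57, 9.89 and 9.94 in the Il1b KO. It was 2.19-fold higher in the Il1a KO (adjusted p = 2.25e-06). Here both knockouts were below wild type (11.47 to 11.65), and the 3 groups were graded with no overlap, wild type highest and the Il1b KO lowest. The other 21 of 23 measured complement genes did not pass, among them the neighbouring copy Cd59b at 0.35, Itgam at 0.34, C4b at -0.06 and C1qa at -0.04.

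Of 8 TRIM genes of the Trim12 and Trim30 cluster, whose products act in antiviral defence, 2 were called, against 0.652% of all genes tested, and both were higher in the Il1a KO. Trim30d read 6.81, 7.06, 7.46 and 7.67 in the Il1a KO, 5.25, 5.37, 5.67 and 5.40 in the Il1b KO and 7.02 to 7.46 in wild type. The difference was 3.54-fold (log2 difference 1.83, SE 0.163, adjusted p = 5.63e-05), with the Il1a KO arrays spread widely (SD 0.39). Trim12a read 6.29, 6.18, 6.46 and 6.62 in the Il1a KO and 4.69, 4.49, 4.89 and 4.86 in the Il1b KO, a 3.15-fold difference (log2 difference 1.66, adjusted p = 2.52e-06). Their close copies did not follow: Trim12c was at -0.41 and Trim30a at 0.17, and neither passed. Since the copies are nearly identical in sequence, how the probe sets divide the signal between them is uncertain.

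Of 27 interferon-stimulated genes 0 were called, against 0.652% of all genes tested. Of the 27, 21 had a positive log2 difference, as did 47.3% of all genes, and 6 had an unadjusted p below 0.05. Oasl2 was at 0.49, Ifit3 at 0.47, Usp18 at 0.44 and Oas2 at -0.17. The list median was 0.127. It rose to 0.238 without Il1a KO replicate 1, whose sex-linked genes differ from those of the rest, and fell to 0.082 without Il1a KO replicate 4. List means of single arrays ran from 7.948 to 8.522 in the Il1a KO and from 7.920 to 8.185 in the Il1b KO, so the groups overlapped. B2m, the light chain of MHC class I, was the called gene among 15 of antigen presentation, against 0.652% of all genes tested. It read 12.33, 12.45, 12.45 and 12.49 in the Il1a KO against 12.11, 11.86, 12.11 and 12.11 in the Il1b KO. B2m was 1.30-fold higher in the Il1a KO (log2 difference 0.38, adjusted p = 0.0174), and the call was lost without Il1a KO replicates 2, 3 or 4 (adjusted p 0.0697, 0.0683 and 0.0811). Partners of B2m in this route did not pass, with Tap1 at 0.21, Psmb9 at 0.10 and H2-Q4 at 0.12.

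The upstream windows of Trim30d and B2m are shown as examples, picked after the matches were known because both genes act in immune defence, of windows that hold a match to the interferon-stimulated response element, in capitals. Of the other called genes, Cd59a, Bub1b, Gm16008 and Gm1966, all higher in the Il1a KO, and Mrpl20 and Tm4sf1, both lower, also have a match. Both run 5′ to 3′ on the gene's own strand in RefSeq's GRCm38.p6, for Trim30d chr7:104507850-104508099 (minus strand) and for B2m chr2:122147437-122147686 (plus strand). In B2m the capitals nearer the start mark a match to the NF-kB motif, 126 bases before it, which does not overlap the response element at 139 bases. In Trim30d the match lies 41 bases before the start, on the opposite strand.
Trim30d: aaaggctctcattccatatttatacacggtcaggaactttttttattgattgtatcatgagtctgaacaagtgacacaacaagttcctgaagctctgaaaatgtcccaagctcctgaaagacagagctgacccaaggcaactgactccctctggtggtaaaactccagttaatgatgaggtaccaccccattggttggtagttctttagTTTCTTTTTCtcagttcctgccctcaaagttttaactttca
B2m: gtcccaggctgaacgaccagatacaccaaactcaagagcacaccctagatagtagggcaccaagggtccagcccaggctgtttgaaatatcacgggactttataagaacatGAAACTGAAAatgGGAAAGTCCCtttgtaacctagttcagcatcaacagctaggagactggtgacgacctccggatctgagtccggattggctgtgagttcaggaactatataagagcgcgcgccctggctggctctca

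Windows were found for 103 of the called genes, 124 windows in all since some genes have several starts. The response element was matched in 8 of them (6.45%), against 2.86% of 19177 windows of the genes tested (chromosome 18 left out), and in 6 of the 73 windows of genes higher in the Il1a KO (8.22%). The NF-kB motif was matched in 5 called windows (4.03%), against 4.68% of all. A match is a string of letters and does not show that a factor binds there.

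Among the other large rises in the Il1a KO, G530011O06Rik, an X-linked transcript, read 8.25, 8.19, 9.24 and 9.02 against 7.16, 7.15, 7.42 and 7.35 in the Il1b KO. It was 2.65-fold higher (adjusted p = 0.00876), and its difference without Il1a KO replicate 1 was 1.55 on the log2 scale. AA467197, which encodes a small mitochondrial protein, ran from 8.46 to 9.06 in the Il1a KO and from 7.50 to 7.68 in the Il1b KO (2.36-fold, adjusted p = 5.29e-05). Rpl34, a protein of the large ribosomal subunit, ran from 10.18 to 10.23 and from 9.08 to 9.27 (2.02-fold, adjusted p = 8e-08). Ribosomal protein genes have many near-identical copies, so the source of the Rpl34 signal is uncertain. Ly86, the partner of the Toll-like receptor homologue Cd180 on B cells and macrophages, read 11.18, 10.94, 11.14 and 11.18 against 10.18, 10.07, 10.20 and 10.14 (1.95-fold, adjusted p = 7.24e-07). Ly86 was the called gene among 21 markers of monocytes and macrophages, against 0.652% of all genes tested. Of these 21 markers, 15 had a negative log2 difference, as did 52.7% of all genes.

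Smaller rises were those of the clock-family transcription factor Arntl2 (1.72-fold), the serine protease inhibitor Spint1 (1.68-fold), the deoxycytidylate deaminase Dctd (1.68-fold) and the vasoactive peptide gene Uts2 (1.57-fold). Each kept its call in every alternative fit. The spindle checkpoint kinase Bub1b was 1.56-fold higher (log2 difference 0.65, adjusted p = 0.0409), and this call was lost in 8 of the 12 fits that left out 1 array. Those arrays were wild type replicate 2, Il1a KO replicates 1, 2, 3 and 4 and Il1b KO replicates 1, 3 and 4 (adjusted p 0.0671, 0.0601, 0.153, 0.0688, 0.154, 0.0871, 0.158 and 0.13).

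Among the other large falls, Mrpl20, of the mitochondrial ribosome, ran from 8.83 to 8.93 in the Il1a KO and from 9.52 to 9.70 in the Il1b KO (1.63-fold lower, adjusted p = 3.01e-05). Il1bos, a transcript antisense to Il1b, read 6.06, 6.19, 6.09 and 6.16 in the Il1a KO and 6.66, 6.75, 6.81 and 6.95 in the Il1b KO (log2 difference -0.67, adjusted p = 0.00728). It thus differed in the direction opposite to Il1b itself, and its wild-type arrays lay between 5.55 and 6.15. Fam169a (log2 difference -0.65), the germ-cell RNA-binding protein gene Rbm46 (-0.61) and Depdc7 (-0.61) were also lower in the Il1a KO. The secretoglobin gene Scgb3a1 had a log2 difference of -0.71 (adjusted p = 0.0135), which did not pass without Il1a KO replicates 1, 2 or 4 or Il1b KO replicate 3 (adjusted p 0.0582, 0.0601, 0.0615 and 0.0596).

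For 20 called genes the wild-type mean was nearer the Il1b KO. Among them Entpd4 had the smallest adjusted p. It averaged 11.43 in the Il1a KO, 10.79 in the Il1b KO and 10.71 in wild type (log2 difference 0.64, limma adjusted p = 2e-07). Tox3, an HMG-box nuclear protein that the study singled out on these samples, read 8.78, 8.86, 8.65 and 8.69 in the Il1a KO against 8.24, 8.16, 8.24 and 8.18 in the Il1b KO and 8.02 to 8.17 in wild type. It was 1.45-fold higher in the Il1a KO (log2 difference 0.54, SE 0.0526, adjusted p = 0.000146). Because it was chosen on these arrays, this call is not independent evidence. Coq9, needed for ubiquinone synthesis, averaged 10.08 in the Il1a KO, 9.66 in the Il1b KO and 9.66 in wild type (1.34-fold, adjusted p = 0.00328). Crnde, a long noncoding RNA, read 6.94, 6.80, 6.85 and 6.83 in the Il1a KO and 7.41, 7.34, 7.55 and 7.31 in the Il1b KO, with wild type at 7.44 (log2 difference -0.55, adjusted p = 0.000172). Gadd45gip1, which the mitochondrial ribosome needs, averaged 9.26, 9.78 and 9.69 in the Il1a KO, the Il1b KO and wild type (adjusted p = 5.18e-05). Znrd1as averaged 6.66, 7.30 and 7.15 in the same order (log2 difference -0.64), and Lpcat2, which makes platelet-activating factor, 9.47, 9.91 and 9.84 (log2 difference -0.44, adjusted p = 0.00758). In each of these genes the wild-type mean lay nearer to the Il1b KO than to the Il1a KO. The gelatinase Mmp2 was at 0.47 (adjusted p = 0.0273), a call lost without Il1a KO replicates 1, 2 or 3 or Il1b KO replicates 1, 2 or 4 (adjusted p 0.103, 0.107, 0.0852, 0.0781, 0.089 and 0.0777).

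The calls were then counted along the genome. Of the 129 that could be placed, chromosome 8 held 19 among 955 measured genes (1.99%), chromosome 2 held 25 of 1732 (1.44%), chromosome 4 held 16 (1.39%) and chromosome 5 held 15 (1.32%), against 0.652% overall. Chromosomes 9, 18 and 19 held 0. These shares are descriptions, with no test.

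**Figure D3:**
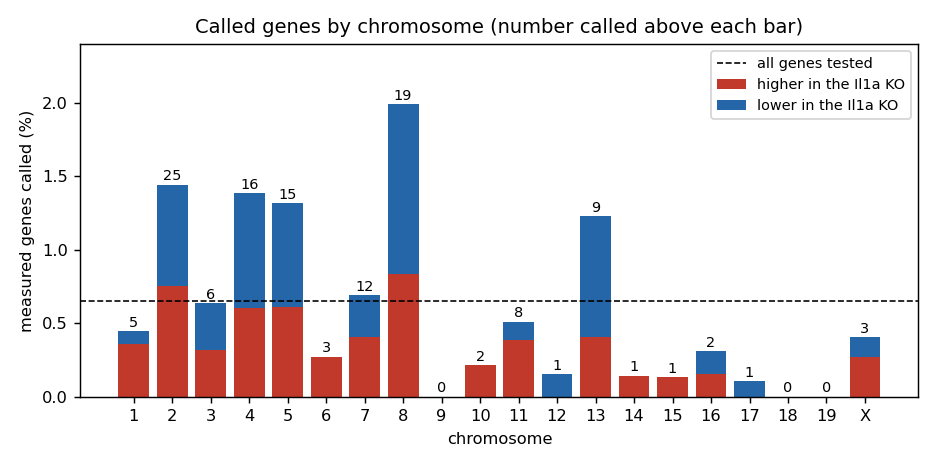
Share of the measured genes of each chromosome that were called (vertical axis, %), with genes higher and lower in the Il1a KO stacked, the number called above each bar and a dashed line at the share of all genes tested, 0.652%. Chromosome 8, at 1.99%, and chromosome 2, at 1.44%, are the tallest bars, and chromosomes 9, 18 and 19 have none.

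Il1a and Il1b are adjacent measured genes on chromosome 2, so the stretch around them was examined. Among the 100 measured genes on either side of Il1a, 10 of 200 were called, or 5%, against 0.652% of all genes tested. The 10 include Il1b, itself targeted in the Il1b KO, and its antisense transcript Il1bos. Apart from these, the nearest calls were Mall, 19 genes before Il1a, and Trmt6, 61 genes after it. Il1b and Il1bos lie next to Il1a, the calcium sensor Kcnip3 (log2 difference 0.43) 24 genes before it and the membrane protein Mall (0.51) 19 genes before it. AA467197, at 64 genes before, B2m, at 76 genes before, and the tRNA-modifying enzyme Lcmt2 (0.55), at 98 genes before, were also higher in the Il1a KO. Bloc1s6 (-0.38), a subunit of a lysosome-related organelle complex, the deaminase-like gene Adal (-0.41) and Trmt6 (-0.30), of a tRNA methyltransferase, were lower. The calls therefore ran in both directions within the same stretch. With 50 neighbours on either side 4 genes were called, and with 200 neighbours 23. Trmt6 was lost without Il1a KO replicates 1, 2 or 4 or Il1b KO replicates 1, 3 or 4 (adjusted p 0.0657, 0.0932, 0.0897, 0.0721, 0.0858 and 0.0753), and B2m as given above.

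**Figure D4:**
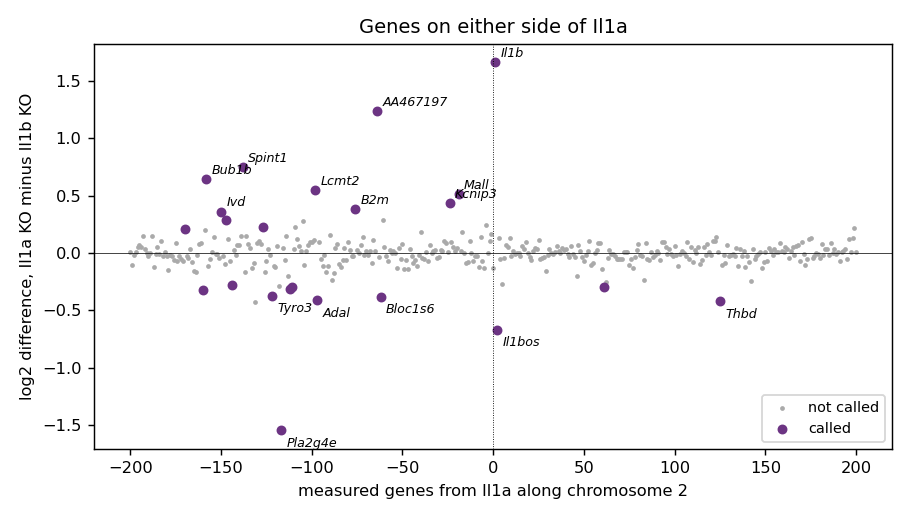
Log2 difference (Il1a KO minus Il1b KO, vertical axis) of genes along chromosome 2, ordered by the number of measured genes from Il1a (horizontal axis, Il1a at 0). Called genes are marked and lie on both sides of 0, with Il1b, 1 gene from Il1a, at 1.66 and AA467197, 64 genes before it, at 1.24.

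Calls that lay close together were counted on all chromosomes. Counting a run as called genes with at most 10 measured genes between neighbours, 83 called genes lay in 28 runs of at least 2, and 17 of these runs held genes of both directions. Runs of at least 3 numbered 9 on 7 chromosomes and held 45 called genes among the 176 measured genes they spanned. The longest, on chromosome 2, had 12 called genes among 60: Meis2, Srp14, Bub1b, Ivd, Ccdc32, Rmdn3, Spint1, Ndufaf1, Tyro3, Pla2g4e, Zfp106 and Snap23. In that run 6 genes were higher and 6 lower in the Il1a KO, with Pla2g4e, at -1.55, the lowest and Spint1, at 0.75, the highest. On chromosome 4 a run of 6 among 15 measured genes held Mrpl20, C1qtnf12 (0.50) and Gm16008 (0.64). On chromosome 8, 6 among 23 included Frg1 (0.46) and Mtus1 (-0.28), and 4 among 13 were Tox3, Crnde, Mmp2 and Lpcat2, so Tox3 stood beside called genes of either sign. Chromosome 13 had a run of the thrombin receptor F2r (-0.39), Iqgap2 (-0.45) and Fam169a. Of the 29 called genes with a change of at least 1.5-fold, 20 lay in a run of at least 2. Among the runs of 2 were Cd59a with Depdc7, Etnppl with Rpl34, Ly86 with Ssr1, and Cxcl11 with Naaa. With a permitted gap of 5 or 20 measured genes, the runs of at least 3 held 29 or 72 called genes. When each of the 12 arrays was left out in turn, 26 of the 45 genes kept their call throughout and 19 lost it at least once, with the highest adjusted p, 0.18, for Rusf1 without Il1a KO replicate 4. What each line carries of another strain's genome around these genes was not tested.

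Of 609 measured members of 34 gene lists, 16 were called, against 0.652% of all genes tested, and 23 lists held none. The lists were chosen with earlier results of these data known, so nothing is read from that share. Among pathway lists, endoplasmic reticulum stress genes had a median log2 difference of -0.070, with 14 of 20 members negative against 52.7% of all genes. Their list means of single arrays were 9.967 to 9.985 in the Il1a KO and 10.026 to 10.064 in the Il1b KO. The chaperones Calr (-0.16), Pdia6 (-0.17) and Hspa5 (-0.09) and the stress gene Nupr1 (-0.28) did not pass singly. Cell cycle genes had a median of 0.113, with 20 of 23 positive against 47.3% of all genes. Their list means were 7.730 to 7.815 in the Il1a KO and 7.567 to 7.713 in the Il1b KO. These means include Bub1b, the called member, whose call was lost in 8 of the 12 fits that left out 1 array. Mki67 was at 0.15, Top2a at 0.22 and Ccna2 at 0.30. The ranges of list means did not overlap in 4 of 17 pathway lists, and this separation was not tested. Immediate early and heat shock genes had a median of -0.105 (-0.061 without Il1b KO replicate 3), with Fos at -0.19, Egr1 at -0.22 and Atf3 at -0.26, and 0 of 22 were called. Cholesterol synthesis genes (median 0.002, 0 called) and respiratory chain and antioxidant genes (median -0.014, or 0.005 without Il1b KO replicate 3, Coq9 called) lay close to the median of all genes, and without Il1a KO replicate 1 the cholesterol median was -0.032.

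**Figure D5:**
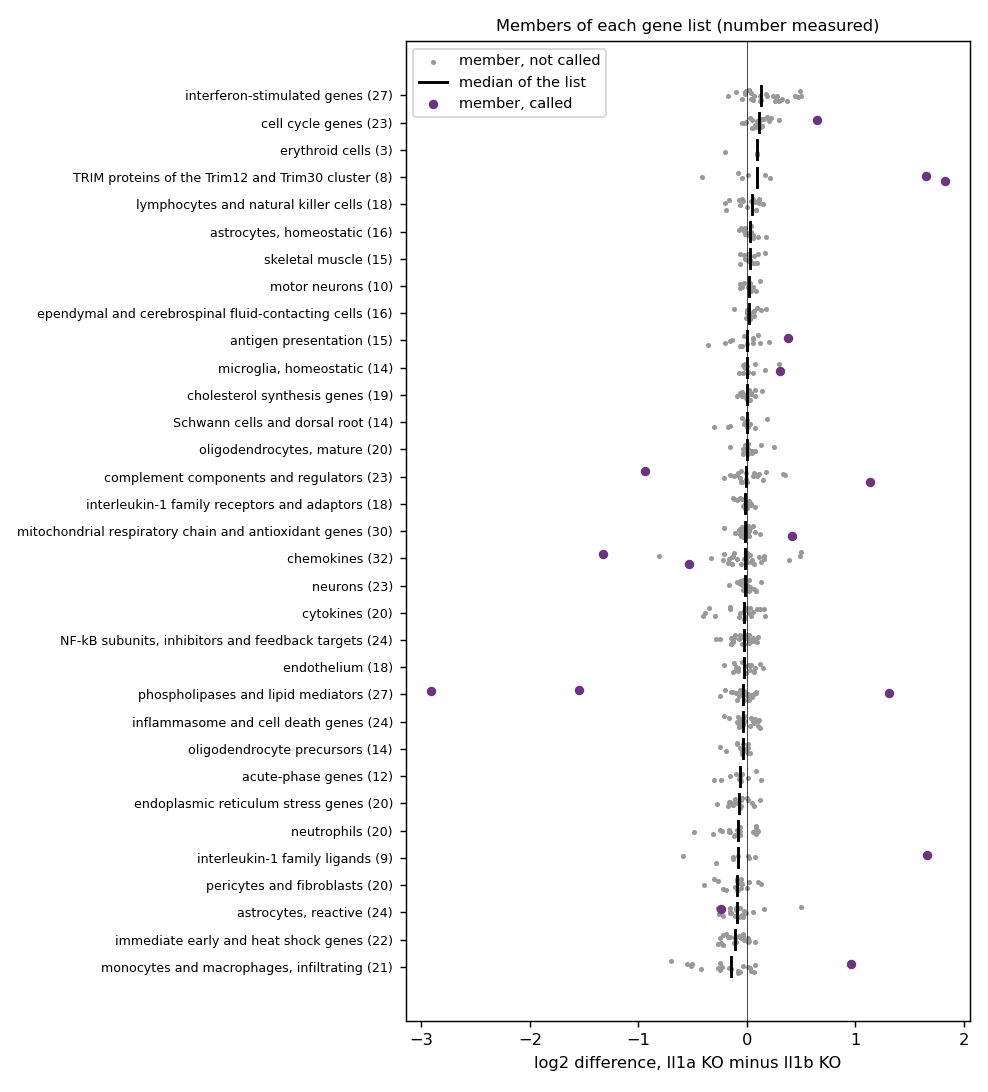
Log2 differences (Il1a KO minus Il1b KO, horizontal axis) of the measured members of each gene list, 1 row per list with the number measured in parentheses, small points for members, large points for called members and a black bar for the median; the sex-linked genes are not drawn. Most members lie close to 0, and the widest rows are those of lipid mediators, chemokines, complement, TRIM genes and the ligands.

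Markers of cell types were counted in the same way. For 16 cell type lists the list means of the 2 knockouts' arrays overlapped in each list. Medians were -0.019 for neurons, 0.022 for motor neurons, 0.031 for homeostatic astrocytes, -0.002 for mature oligodendrocytes, -0.038 for oligodendrocyte precursors, 0.002 for homeostatic microglia, -0.030 for endothelium, 0.020 for ependymal cells, 0.052 for lymphocytes and natural killer cells and 0.030 for skeletal muscle. Leaving out a single array moved each of these medians by more than 1.5 times. Without Il1a KO replicate 1 the medians were -0.031 for motor neurons and 0.007 for homeostatic astrocytes, and without Il1b KO replicate 3 they were 0.016 for mature oligodendrocytes and 0.001 for skeletal muscle. Without Il1a KO replicate 4 the medians were -0.010 for oligodendrocyte precursors and 0.024 for lymphocytes and natural killer cells. Homeostatic microglia had one called member, the lysophosphatidylserine receptor Gpr34, at 0.31 (adjusted p = 0.0299). Its call was lost in 9 of the 12 fits without 1 array, up to an adjusted p of 0.114 without Il1a KO replicate 1, and kept only when wild type replicate 1, 2 or 3 was left out.

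The lists of invading myeloid cells, reactive astrocytes and fibroblasts had negative medians. The counts of negative members below stand beside 52.7% of all genes with a negative log2 difference. Monocyte and macrophage markers had a median of -0.148 (-0.081 without Il1b KO replicate 3 and -0.190 without replicate 4) with 15 of 21 negative. Clec4e at -0.70, Lyz2 at -0.55 and Chil3 at -0.52 did not pass, and the called member, Ly86, went the other way at 0.96. The list mean ran from 8.655 to 8.811 in the Il1a KO and from 8.678 to 9.097 in the Il1b KO. Neutrophil markers had a median of -0.077 with 13 of 20 negative, Trem1 at -0.49, S100a9 at -0.31 and Ly6g at 0.10, and 0 called. The median was -0.190 without Il1b KO replicate 1 and -0.013 without Il1b KO replicate 2. Reactive astrocyte genes had a median of -0.093 (-0.060 without Il1a KO replicate 1) with 21 of 24 negative, Timp1 at -0.27, Cd44 at -0.26 and Gfap at -0.09. The called member, Tm4sf1, was at -0.24 (adjusted p = 0.031) and lost its call without any 1 Il1a KO array or Il1b KO replicates 2, 3 or 4 (adjusted p up to 0.121). Pericyte and fibroblast genes had a median of -0.090 with 16 of 20 negative, Igf2 at -0.39 and Col3a1 at -0.22, and 0 called. The part that the numbers of these cells have in the calls above was not tested.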

How the data were processed

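The values used are the deposited log2 values of the series' value table, 1 per probe set and array, made by the authors from scans of arrays. The submitters' processing notes name GCOS 1.4, RMA, limma and Partek without role or order; that the values are RMA summaries was inferred from this list and the values. RMA equalises array distributions, so an overall shift in RNA amount would not show, and it compresses dim genes. Of 35557 probe sets, 21789 had 1 symbol in the platform annotation, 1621 had several and 12147 were unlisted. For 999 genes with several sets the brightest stood for the gene. Gene order and names came from RefSeq GRCm38.p6, which placed 19856 genes.

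limma 3.58.1 in R 4.3.3 fitted 1 mean per group to 12 arrays. The contrast Il1a KO minus Il1b KO was tested two-sided, with Benjamini-Hochberg adjustment over all genes, and the script was tested on simulated data. Named genes were the 15 largest called rises and falls, Il1a, Il1b, Il1rn, Il1r2 and Tox3, called list members (otherwise the 2 smallest p), and called genes around Il1a or in runs of at least 3. Further list members and Entpd4 were picked once their values were known. The comparison and the lists were chosen with earlier results of these data known. Alternatives changed the arrays fitted, moderation, normalization, dim-gene filter, probe-set rule, window and gap.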

Additional observations from a re-analysis of the deposited data

Results flagged for a closer look

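In groups of 4 arrays, a single array far from the other 3 by Dixon's criterion was looked for among the named genes. Chance alone marks about 1 in 20 groups. With 126 named genes searched in each of the 2 knockouts, some marks would arise by chance, and which of those below did was not tested. The mark of Uty goes with the sex-linked profile of Il1a KO replicate 1 given above. In the Il1a KO, Uty in replicate 1 stood at 8.42 against 4.37 to 4.59, and Nfkbia in the same array at 9.35 against 9.67 to 9.71. Ly86 in replicate 2 stood at 10.94 against 11.14 to 11.18, Ccnl2 in replicate 2 at 8.94 against 8.88 to 8.89, and Sec23ip in replicate 4 at 9.93, below the other 3, of which the highest was 10.01. In the Il1b KO, replicate 2 was apart for B2m (11.86 against 12.11 in the other 3), Zfp106 (10.79 against 10.82 to 10.83), Ccnl2 (9.03 against 9.10 to 9.11), Cd79a (6.11 against 5.90 to 5.92) and Pkd1l2 (7.49 against 7.34 to 7.37). Replicate 1 was apart for Fam169a (9.21 against 9.42 to 9.45) and Ivd (9.37 against 9.43 in the others), replicate 3 for Arntl2 (7.63 against 7.71 to 7.73) and replicate 4 for Pdgfrl (7.74 against 7.86 to 7.87).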

How the results depend on the processing

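The count of 130 called genes was 147 with the 8 knockout arrays alone, 153 with trend and robust moderation, 132 when quantile-normalized again, 127 when centred on array medians, 137 without the dimmest 30% of genes, 126 with the mean of a gene's probe sets and 88 to 146 with 1 array left out. Genes lower in the Il1a KO numbered 37 to 70 with 1 array left out, and those higher 49 to 76. The split of 69 higher and 61 lower was 77 and 55 when quantile-normalized again and 76 and 51 when centred. In these fits and the blocked one, 0 of the 130 genes changed sign, 77 were called throughout, and 51 of the 78 named called genes were. Dlc1 was lost with the mean of its probe sets (adjusted p = 0.318). The window around Il1a held 4 calls with 50 neighbours and 23 with 200, and runs of at least 3 held 29 genes at a gap of 5 and 72 at 20. The median of all genes was -0.0042, 0.0007 when quantile-normalized again and 0.0104 when centred.

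Groups share replicate numbers. With a replicate block 105 genes were called, 98 of them among the 130. Same-numbered arrays' deviations correlated from -0.374 to 0.441, and in 4 of 24 comparisons an array correlated best with its own number in another group, so the numbers were not taken as pairs.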

Other observations

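Probe sets with several gene symbols were left out above. When these 1621 were fitted together with the genes, 17 were called by limma, 8 higher and 9 lower in the Il1a KO. They are not 17 separate genes: joined where they share a symbol, the 8 higher sets formed 4 groups of related or overlapping genes and the 9 lower sets formed 1. No single gene can be named for them.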
